A study of Mus musculus with 4 samples.

Results

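Otx2, Pou3f1, Fgf5, Sox3, Zic2, Sall2 and Car14 are 7 genes used as markers of the formative and primed epiblast. They were found by matching their symbols in the GENCODE vM21 annotation to the Ensembl identifiers of the gene tables, which gave 1 row for each of the 7 among 55401 listed identifiers. All 7 also passed the filter on low counts, which left 16511 genes. RNA had been sequenced from 4 libraries of EB3 mouse embryonic stem cells, kept on gelatin in serum medium with LIF: 2 of EB3-derived cells that carry the leukaemia fusion NUP98-HOXA9 (libraries 1 and 2), and 2 wild-type controls, 1 of the parental line and 1 of EB3-derived cells with an empty vector. Whether the fusion libraries are separate clones, separate cultures or repeat preparations is not stated, nor is the promoter that drives the fusion, so the p-values take the scatter among these 4 samples as their yardstick, and that scatter may be technical.

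The epiblast is the layer of the early embryo that gives rise to the body. Embryonic stem cells in the naive state resemble it before implantation, and on leaving that state they pass through a formative stage to a primed one, as the epiblast does around and after implantation. OTX2 and POU3F1 (also called OCT6) act early in that passage; OTX2 helps direct OCT4 to new enhancers, and FGF5 is the classic secreted marker of the post-implantation epiblast. Cultures in serum and LIF are known to be mixtures, in which some cells express such markers. In bulk RNA, fewer cells that express a gene and less of its RNA per cell cannot be told apart.

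The libraries held 19021386 to 21151729 expected counts. Hoxa9 stood at 190 and 127 CPM in fusion libraries 1 and 2 and at 0 counts in both controls, in keeping with the labels; reads of the construct and of the cells' own gene are not separated. The 5 stem-cell markers Pou5f1, Nanog, Sox2, Zfp42 and Esrrb summed to 3620 and 3119 CPM in fusion libraries 1 and 2, against 3035 CPM in the parental line and 3263 with the empty vector. Levels below are CPM, counts scaled to library size with TMM factors, unless TPM is named, which is scaled for transcript length too.

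Of the 7 genes, 4 have 1 or more annotated starts in the RefSeq promoter table for GRCm38.p6, and Otx2 (4 starts), Fgf5 (1) and Car14 (1) are the members of these 4 with the largest differences between fusion and control libraries. The 250 bases before the start are given for these 3 genes, because the description below rests on them. For Otx2, start 3 counted from the 5′ end is shown, chosen since it alone of the 4 holds an OTX-type site. Capitals mark the matches to the 7 motifs searched.

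Otx2 start 3 (chr14:48665110-48665359, minus strand, 5′ to 3′): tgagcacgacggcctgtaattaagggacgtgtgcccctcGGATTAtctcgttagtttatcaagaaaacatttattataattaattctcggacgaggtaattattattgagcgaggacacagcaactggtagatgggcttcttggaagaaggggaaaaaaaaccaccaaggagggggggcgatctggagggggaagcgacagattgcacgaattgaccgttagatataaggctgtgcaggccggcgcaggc
Fgf5 (chr5:98253934-98254183, plus strand, 5′ to 3′): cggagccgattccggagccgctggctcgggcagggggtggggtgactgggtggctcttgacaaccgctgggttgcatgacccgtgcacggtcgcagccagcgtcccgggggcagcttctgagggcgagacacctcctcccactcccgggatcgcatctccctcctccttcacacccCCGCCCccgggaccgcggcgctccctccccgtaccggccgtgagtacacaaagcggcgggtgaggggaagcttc
Car14 (chr3:95904686-95904935, minus strand, 5′ to 3′): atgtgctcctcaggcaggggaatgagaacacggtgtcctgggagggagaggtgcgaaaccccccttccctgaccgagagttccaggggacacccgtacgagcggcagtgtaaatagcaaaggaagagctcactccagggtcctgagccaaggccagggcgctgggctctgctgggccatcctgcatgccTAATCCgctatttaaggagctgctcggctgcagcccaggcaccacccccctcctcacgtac

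The motifs, searched on both strands, were TATAAA for the TBP box, CCAAT for the NF-Y box, GGGCGG for the SP1 box, ATGCAAAT for the octamer, TAATCC for the OTX-type site, TGACAG for the MEIS site and TGATTNAT for the PBX-HOX site; none is contained in another. TAATCC or its complement lay at position -61 before the Car14 start and at position -211 before Otx2 start 3 (the first base of the match, counted back from the start). These letters occur in 6.25% of 32851 windows of this length. That share is per window, and all starts of Otx2 were searched before start 3 was picked. Fgf5 had an SP1 box at position -74, as 32.7% of windows do, in a window with 70.8% G and C and 24 CpG dinucleotides, against medians of 52.4% and 6 over all windows. Otx2 start 1 had a TBP box at position -192 (12.4% of windows) and start 2 an NF-Y box at position -70 (33.8%). No octamer (1.6% of windows), MEIS site (15.9%) or PBX-HOX site (2.82%) was found in the windows of Otx2, Fgf5, Car14 and Sall2. At Sall2 the upstream start had a TBP box (position -145) and an NF-Y box (position -86). Its 2 windows differed in base content: 28.0% G and C with no CpG dinucleotide at the upstream start, and 64.4% at the downstream start.

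The comparison of NUP98-HOXA9 cells (n = 2) with wild-type cells (n = 2) asks how the fusion cells differ from their controls. Otx2 and Pou3f1 fell, Fgf5 and Car14 had large negative differences that did not pass the test, Zic2 and Sall2 had small ones, and Sox3 alone had a positive one. So 2 of the 7 genes were lower and none was higher at a Benjamini-Hochberg adjusted p of 0.05 in edgeR's quasi-likelihood test; at an unadjusted p of 0.05, 5 were lower and 0 higher, beside 7.41% and 12.7% of all genes. By adjusted p, over all 16511 genes tested 3.42% were called, 0.581% lower and 2.83% higher. In 6 of the 7 genes both fusion libraries lay below both controls, an arrangement found in 24.2% of all genes tested, and Sox3 had the opposite one, found in 27.1%. The median log2 fold change of the 7 was -1.4, beside -0.0034 over all genes. The 7 were listed with results of these data known, so these counts are a description. DESeq2's Wald test called 4 of the 7 lower (Otx2, Pou3f1, Fgf5 and Car14) and 0 higher, where it called 2.45% of all genes lower and 5.27% higher.

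**Figure D1:**
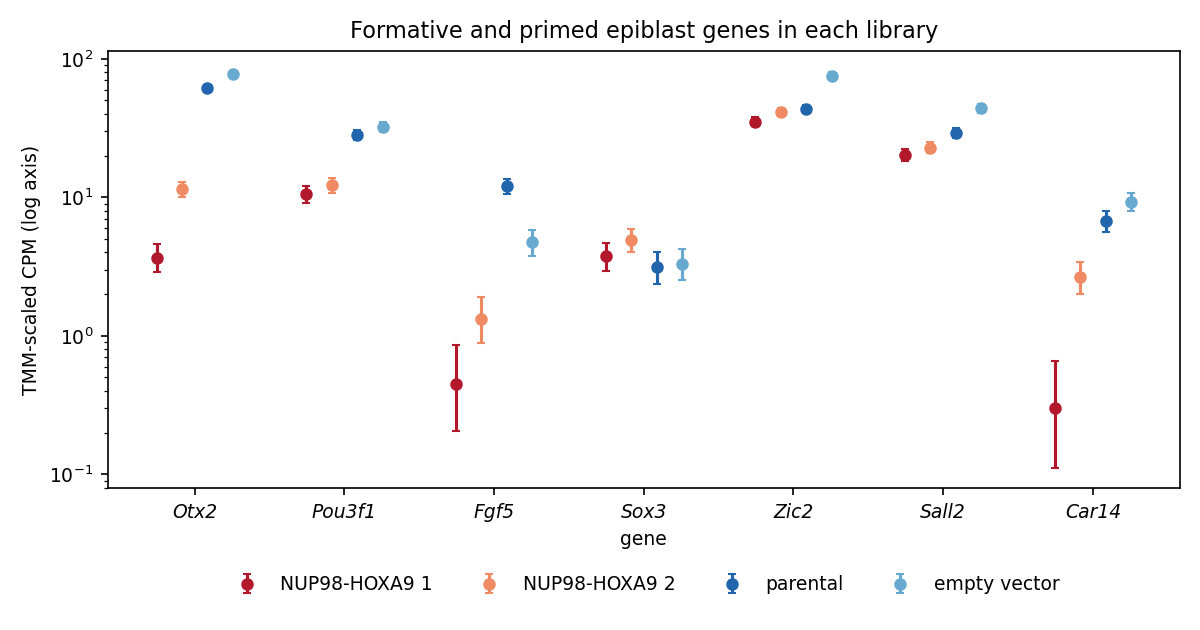
TMM-scaled CPM of the 7 genes (log axis) in fusion libraries 1 and 2 (red, orange) and in the parental and empty-vector libraries (blues); points are single libraries and bars are exact Poisson intervals at 95%, which cover counting error only. Otx2, Pou3f1, Fgf5 and Car14 are lower in both fusion libraries than in either control, and Car14 has the widest gap between the fusion libraries, 0.301 against 2.64 CPM.

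The transcription factors come first. Otx2 (ENSMUSG00000021848, chromosome 14, 48657677 to 48673819, minus strand, GRCm38) encodes a homeodomain factor of the epiblast and of the anterior head. It had 73 and 250 expected counts in fusion libraries 1 and 2, against 1176 in the parental line and 1471 with the empty vector, or 3.66 and 11.4 CPM in the fusion libraries, against 61.3 and 78 CPM in the controls. Both fusion libraries lay far below both controls, and fusion library 1 was the lowest. The log2 fold change was -3.2 (SE 0.5, adjusted p = 0.0259), a fitted ratio of 0.109, the 30th most negative of the 16511. The call was lost without the parental library (adjusted p = 0.161) and without the empty-vector library (adjusted p = 0.14), with log2 fold changes of -3.39 and -3.05; without fusion library 1 the log2 fold change was -2.62 (adjusted p = 0.0381) and without fusion library 2 it was -4.25 (adjusted p = 0.00909). In every fit with a library left out, here and below, 1 group holds a single library, and the spread comes from the other group's pair alone, so such a fit shows whether a call depends on that library and not how the lone library's group varies.

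Pou3f1 (ENSMUSG00000090125, chromosome 4, 124656807 to 124660655, plus strand) encodes a POU-domain factor of the epiblast and of Schwann cells. It stood at 10.5 and 12.2 CPM in fusion libraries 1 and 2, against 28.1 CPM in the parental line and 32.2 with the empty vector. The values within each group lay close together and the groups did not overlap. The log2 fold change was -1.4 (SE 0.25, adjusted p = 0.0349), a fitted ratio of 0.378. With a library left out it ranged from -1.52 to -1.31. The call was lost in 3 of those 4 fits, at an adjusted p of 0.0688 when the empty vector was dropped, 0.148 when fusion library 1 was and 0.0654 when fusion library 2 was.

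Zic2 (ENSMUSG00000061524, chromosome 14, 122475435 to 122479852, plus strand) encodes a zinc-finger factor of the epiblast and neural tube. It stood at 35.1 and 41.4 CPM in fusion libraries 1 and 2, against 43.2 CPM in the parental line and 75.6 with the empty vector. Fusion library 2 and the parental library were nearly level, and the empty-vector library stood apart above the other 3. Its log2 fold change was -0.63 (SE 0.29), short of the threshold at an adjusted p of 0.288. It was -0.98 against the empty vector alone and -0.17 against the parental line alone, so its size depends on the control.

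Sall2 (ENSMUSG00000049532, chromosome 14, 52311172 to 52328762, minus strand), a spalt-family zinc-finger gene, had nearly the same profile as Zic2. It stood at 20.2 and 22.8 CPM in fusion libraries 1 and 2, against 29.1 CPM in the parental line and 43.8 with the empty vector. The groups did not overlap, though the controls differed from each other by more than the fusion libraries did. At -0.76 (SE 0.27) its log2 fold change missed the threshold (adjusted p = 0.174); it was -1.03 against the empty vector alone and -0.43 against the parental line alone.

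Sox3 (ENSMUSG00000045179, X chromosome, 60891366 to 60893430, minus strand), a SOXB1 factor of the epiblast and neural ectoderm, went the other way. It stood at 3.76 and 4.88 CPM in fusion libraries 1 and 2, against 3.13 CPM in the parental line and 3.29 with the empty vector. The groups did not overlap, but the gap between fusion library 1 and the empty vector was smaller than that between the fusion libraries. For Sox3 the log2 fold change was 0.43 (SE 0.39) with an adjusted p of 0.619, and with 60 to 107 counts a library the Poisson intervals of fusion library 1 (2.96 to 4.71 CPM) and of the empty vector (2.52 to 4.22 CPM) overlap.

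The secreted and membrane proteins follow. Fgf5 (ENSMUSG00000029337, chromosome 5, 98254184 to 98277030, plus strand), the ligand, had 9 and 29 counts in fusion libraries 1 and 2, against 230 in the parental line and 89 with the empty vector, or 0.451 and 1.32 CPM in the fusion libraries, against 12 and 4.72 CPM in the controls. It was the only 1 of the 7 that stood higher in the parental line than with the empty vector. Both fusion libraries lay below both controls, and the Poisson interval of fusion library 2 (0.886 to 1.9 CPM) ended below that of the empty vector (3.79 to 5.81 CPM). The log2 fold change was -3.22 (SE 0.68), with an adjusted p of 0.0536, just outside the threshold. Without the empty-vector library the adjusted p was 0.016 (log2 -3.77), and with each of the other 3 libraries left out it lay between 0.068 and 0.217.

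Car14 (ENSMUSG00000038526, chromosome 3, 95897768 to 95904691, minus strand) encodes carbonic anhydrase XIV, a membrane-bound enzyme that interconverts carbon dioxide and bicarbonate. It had 6 and 58 counts in fusion libraries 1 and 2, against 129 in the parental line and 174 with the empty vector, or 0.301 and 2.64 CPM in the fusion libraries, against 6.72 and 9.23 CPM in the controls. Both fusion libraries lay below both controls, with fusion library 2 between library 1 and the controls. The Poisson intervals of the fusion libraries, 0.11 to 0.655 CPM and 2.01 to 3.42 CPM, did not overlap. For Car14 the log2 fold change was -2.42 (SE 0.82), with an adjusted p of 0.16. Without fusion library 2 it was -4.7 and passed (adjusted p = 0.0267), and without fusion library 1 it was -1.6 (adjusted p = 0.258).

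**Figure D2:**
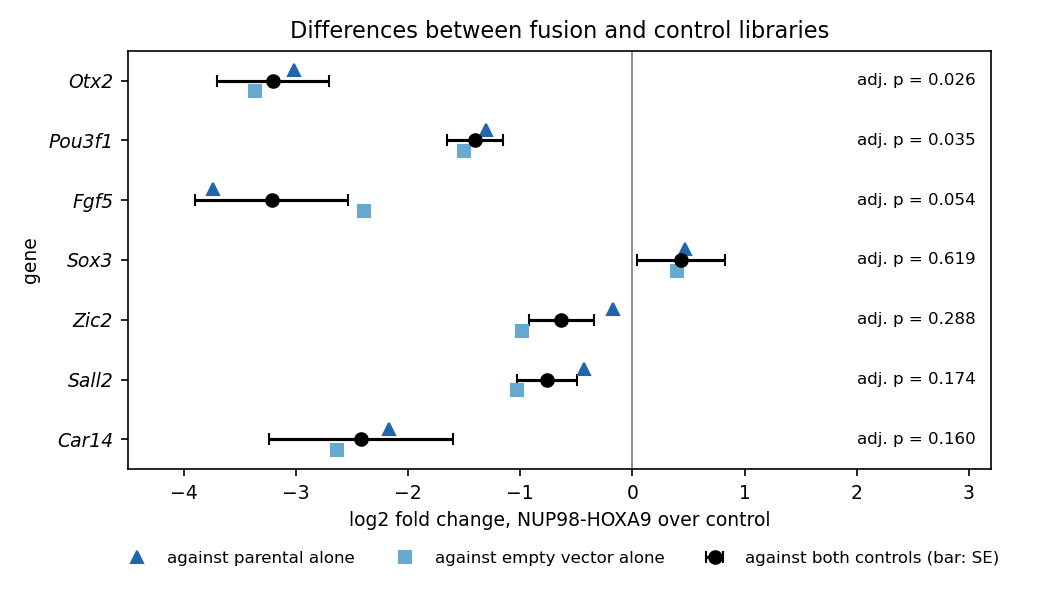
Log2 fold change of each gene, NUP98-HOXA9 over control, against both controls together (black, bar SE), against the parental library alone (triangles) and against the empty-vector library alone (squares), with the adjusted p of the fit on both controls at the right. Otx2 (-3.2) and Pou3f1 (-1.4) passed, the triangle and square of Zic2 lie at -0.17 and -0.98, and Sox3 (0.43) is the single gene to the right of 0.

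Against each control alone the signs were the same, as must follow where the groups do not overlap. Of 7 log2 fold changes 6 were negative against the parental line and 6 against the empty vector. No member passed the test in either 3-group edgeR fit, where 0.121% of all genes were called lower against the parental line and 0.109% against the empty vector. The lowest adjusted p of a member was 0.0708 (Fgf5, parental) and 0.0899 (Pou3f1, empty vector), and at an unadjusted p of 0.05 the members lower numbered 3 against the parental line and 5 against the empty vector, beside 5.62% and 5.38% of all genes. Both fits share the fusion libraries, and the lone control is assumed to vary as the fusion libraries do.

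The fusion libraries differed from each other in a common direction. All 7 genes were higher in fusion library 2 than in library 1, as were 51.7% of all genes tested. The ratio of library 2 to library 1 (with a prior count of 2) was 6.85 for Car14, 3.06 for Otx2 and 2.58 for Fgf5, the 3 members at least 2-fold apart, against 7.38% of all genes. It lay between 1.13 (Sall2) and 1.29 (Sox3) for the other 4. Between the controls, 6 of the 7 were higher with the empty vector than in the parental line, as were 50.2% of all genes; the ratio was 1.75 for Zic2, 1.51 for Sall2 and 0.399 for Fgf5. Each of these is a comparison of 2 libraries, with no test.

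**Figure D3:**
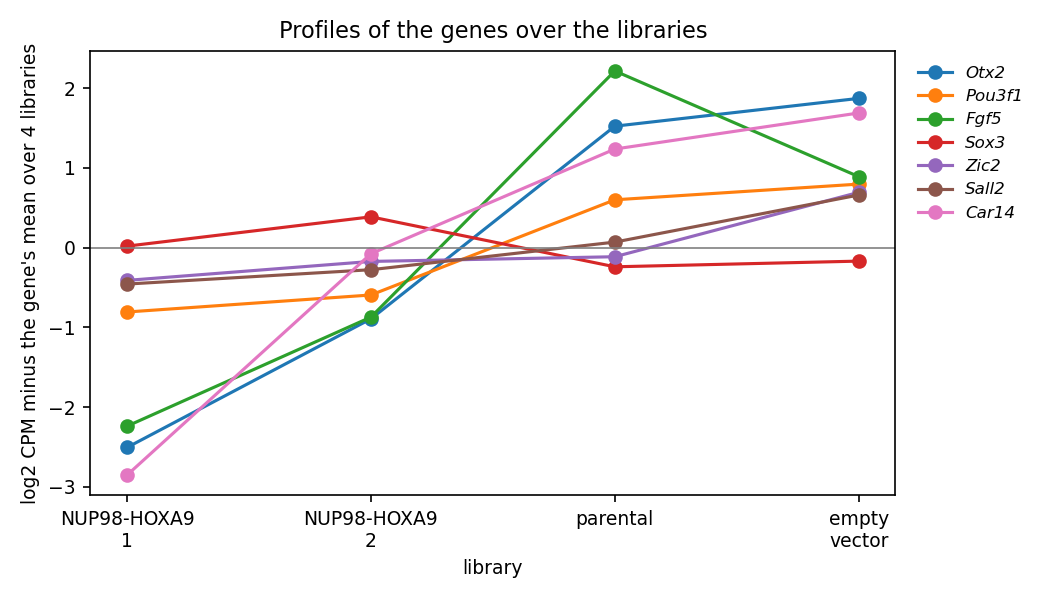
Log2 CPM of each gene in the 4 libraries, with the gene's mean over the libraries taken off; lines join the points of 1 gene and do not stand for a time course. Otx2, Fgf5 and Car14 have their lowest point in fusion library 1 and a second low point in fusion library 2, Zic2 and Sall2 nearly coincide, and Sox3 runs nearly flat.

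By profile over the 4 libraries Zic2 and Sall2 formed a close pair, 0.109 log2 units apart (root mean square distance of log2 CPM centred on each gene's mean). Otx2 lay at 0.475 from Car14 and at 0.615 from Fgf5, while Fgf5 and Car14 were 0.807 apart. Pou3f1 lay nearest to Sall2 (0.362), and Sox3 to Zic2 (0.56). Zic2, Sall2 and Otx2 all lie on chromosome 14, whose 600 tested genes had a median log2 fold change of -0.024. The search for like profiles covered 11863 genes that averaged 2 CPM or more. The nearest to Otx2 were Neb (0.184), which encodes the muscle protein nebulin, and Slc27a2 (0.203), which encodes a fatty acid transporter. The nearest to Pou3f1 were Nsmaf (0.0141) and Bend3 (0.0253), to Fgf5 Pmel (0.253) and Patl2 (0.29), to Sox3 Arvcf (0.0216), to Zic2 Zfp182 (0.0267) and Myo10 (0.04), and to Sall2 Zfp607a (0.0211) and Nova2 (0.036). Those nearest to Car14 were Bcl11a (0.0636), a zinc-finger factor of blood and brain, and Irs4 (0.152), an insulin receptor substrate. Bcl11a stood at 0.15 and 1.55 CPM in fusion libraries 1 and 2, against 4.53 CPM in the parental line and 5.83 with the empty vector. With 4 libraries, many genes share a profile by this measure.

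In TPM, which allows levels to be set side by side between genes, Zic2 was the most abundant of the 7 in the fusion libraries, at 26.7 ± 4.43 TPM (SD, n = 2). Sall2 (6.82 ± 0.714), Otx2 (6.53 ± 4.8) and Pou3f1 (4.52 ± 0.58) followed, then Sox3 (3.26 ± 0.665), Car14 (1.69 ± 1.88) and Fgf5 (0.82 ± 0.707). In this order Zic2 stood clear of Sall2 and Pou3f1 of Sox3, while the ranges of the other neighbours overlapped. In the wild-type libraries Otx2 came first at 54 ± 14.2 TPM, followed by Zic2 at 38.8 ± 17.3, with overlapping ranges. Pou3f1 (11.1 ± 1.67), Sall2 (10.6 ± 3.56), Car14 (8.26 ± 1.77) and Fgf5 (5.37 ± 2.69) formed a run in which each overlapped the next, and Sox3 was last and clear of Fgf5, at 2.25 ± 0.205 TPM. Otx2 thus held the third place in the fusion libraries and the first in the wild-type libraries, and Sox3 the fifth and the seventh.

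Reads of the 7 genes were little shared with other genes. All had whole expected counts in all 4 libraries. The tables' effective lengths lie 74 bases below the transcript lengths, and of the stretches of 75 bases in the annotated transcripts 0 occur, on either strand, in transcripts of other genes for Fgf5, Sox3, Zic2 and Sall2. The share was 2.14% for Otx2 (with Otx2os1 and Gm49154), 6.81% for Pou3f1 (with the antisense Gm2164) and 14.7% for Car14 (with Aph1a, which overlaps its end on the other strand). Otx2os1 had 0 and 1 counts in fusion libraries 1 and 2, against 3 in the parental line and 4 with the empty vector. Aph1a had 1137 and 1302 expected counts in fusion libraries 1 and 2, against 1188 and 1047 in the controls; its log2 fold change was -0.013. The kit marks strand, but which strand the authors counted is not known here. The mean transcript length of Fgf5, weighted by isoform, was 2133 and 1595 bases in fusion libraries 1 and 2, against 2282 and 2046 bases in the parental and empty-vector libraries, between annotated isoforms of 600 and 2501 bases; it rests on few counts in the fusion libraries.

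Genes beside the members had medians nearer to 0 than the members' own; those near Fgf5 and Sox3 rest on few genes. Over the 9 tested genes within 500 kb of Otx2 the median log2 fold change was 0.11, and over the 14 near Sall2 it was -0.065. For Car14 the median was 0.074 over 34 genes, for Pou3f1 0.052 over 17, for Zic2 -0.43 over 11, for Fgf5 1 over 3 and for Sox3 0.16 over 2. Zic5, which lies 9.76 kb from Zic2, stood at 18.1 and 34.7 CPM in fusion libraries 1 and 2, against 44.1 CPM in the parental line and 58.6 with the empty vector, with a log2 fold change of -0.96 (SE 0.33, adjusted p = 0.172). Genes past the test within these windows were Platr30 (441 kb from Car14, log2 -4.36), Zc3h12a (458 kb from Pou3f1, log2 2.31) and Tmem253 (291 kb from Sall2, log2 3.28). Without fusion library 1 the adjusted p was 0.121 for Platr30, 0.0784 for Zc3h12a and 0.173 for Tmem253; Platr30 had 0.0526 without fusion library 2 and Tmem253 0.0897 without the parental library.

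In the SOXB1 family Sox1, a neural factor, rose, at 6.17 and 4.06 CPM in fusion libraries 1 and 2, against 0.99 CPM in the parental line and 1.06 with the empty vector (log2 2.31, SE 0.46, adjusted p = 0.0468; 0.0584 to 0.192 with a library left out). Sox2, the SOXB1 member of the core pluripotency network, stood at 289 and 384 CPM in fusion libraries 1 and 2, against 414 and 436 CPM in the controls (log2 -0.34, adjusted p = 0.404). Whether Sox1, Sox2 and Sox3 differ in their response was not tested. Among the SALL genes Sall1 stood at 77.7 and 174 CPM in fusion libraries 1 and 2, against 308 and 279 CPM in the controls (log2 -1.22, adjusted p = 0.115), while Sall4 and Sall3 had log2 fold changes of 0.1 and 0.28. Fgf4, the main FGF of naive cells, had -0.55 (adjusted p = 0.356), and the carbonic anhydrase genes Car2, Car4 and Car12 had -0.2, -0.21 and 0.072. Of 21 listed paralogs 13 were tested, of which 1 rose and 0 fell by edgeR. At an unadjusted p of 0.05, 2 were lower, beside 7.41% of all genes. DESeq2 called 1 lower, beside 2.45% of all genes. Otx1 was not tested, with 10 and 8 counts in fusion libraries 1 and 2, against 4 in the parental line and 3 with the empty vector.

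A list of 30 other genes of the formative and primed epiblast held 29 tested genes. Of these 2 fell, 2 rose and 25 did not pass, with a median log2 fold change of -0.48. Over all genes tested 0.581% were called lower and 2.83% higher. At an unadjusted p of 0.05 in the edgeR test, 11 of the 29 were lower and 4 higher, beside 7.41% and 12.7% of all genes. DESeq2's Wald test called 6 lower and 3 higher, beside 2.45% and 5.27% of all genes. Zic5 is on the list and also among the paralogs. Dnmt3b, a de novo DNA methyltransferase that rises in the epiblast, stood at 172 and 231 CPM in fusion libraries 1 and 2, against 405 CPM in the parental line and 517 with the empty vector (log2 -1.19, SE 0.22, adjusted p = 0.0395). Cldn6, a tight-junction claudin of epiblast epithelium, stood at 17.8 and 35.8 CPM in the fusion libraries, against 112 and 77.3 CPM in the controls (log2 -1.82, SE 0.36, adjusted p = 0.0459). Nr6a1, an orphan nuclear receptor (GCNF) known to repress Pou5f1 during differentiation, rose to 340 and 271 CPM in the fusion libraries, against 97.8 and 82.9 CPM in the controls (log2 1.76, SE 0.2, adjusted p = 0.0115). Etv4, an ETS factor induced by FGF signalling, rose to 200 and 129 CPM in the fusion libraries, against 51.3 and 32.5 CPM in the controls (log2 1.97, SE 0.3, adjusted p = 0.0255). In 11 of the 29 both fusion libraries lay below both controls and in 5 above, beside 24.2% and 27.1% of all genes tested. Grhl2, an epithelial factor, had a gap between the fusion libraries like that of Car14, at 1.45 and 19 CPM in the fusion libraries, against 56.1 and 71.3 CPM in the controls (log2 -2.63, adjusted p = 0.166); it was named after its values were seen. Nr6a1 passed with each library left out in turn. Without fusion library 1 the adjusted p was 0.0951 for Etv4, 0.176 for Dnmt3b and 0.131 for Cldn6; Dnmt3b had 0.0571 without the empty vector and 0.0503 without fusion library 2, and Cldn6 had 0.116 without the parental library and 0.0542 without the empty vector.

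**Figure D4:**
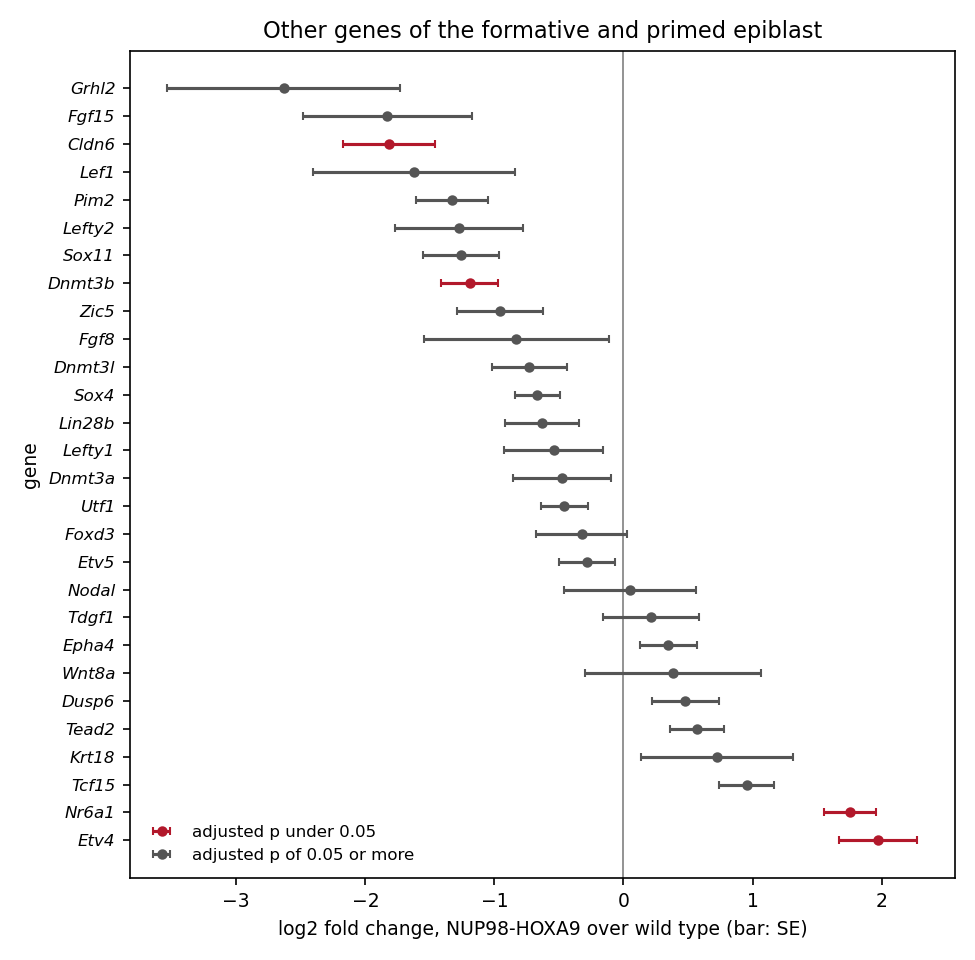
Log2 fold change, NUP98-HOXA9 over wild type, of 28 of the 29 genes tested on the wider epiblast list, ordered from lowest to highest, with bars for the SE. Dnmt3b and Cldn6 fell and Nr6a1 and Etv4 rose (red); Grhl2 (-2.63) has the most negative estimate and a wide bar.

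Around the members, of 20 naive genes tested Tbx3 (log2 2.86) and Klf5 (1.63) rose and Nr5a2 (-0.96) fell, with a median of 0.22. At an unadjusted p of 0.05, 8 naive genes were higher and 4 lower, beside 12.7% and 7.41% of all genes. DESeq2's Wald test called 7 higher and 2 lower, beside 5.27% and 2.45% of all genes, and edgeR without a filter 8 and 2. Limma on log2(TPM + 1) called 2 higher and 0 lower, where it called 261 higher and 35 lower of 15184 genes. Tbx3 passed with each library left out, Klf5 was lost (adjusted p 0.0615, 0.087 and 0.0809) when the parental, the empty-vector or the first fusion library was dropped, and Nr5a2 had 0.0699 to 0.184 in the 4 fits. Of 9 core pluripotency genes Lin28a fell (log2 -1.2; adjusted p = 0.0562 without the parental library, 0.159 without fusion library 1 and 0.0621 without fusion library 2), and the median was -0.084. Of 20 FGF ligands, receptors and response genes Etv4 and Fgfr3 (log2 3.09; adjusted p = 0.114 without fusion library 1) rose, with a median of -0.31.

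Among markers of other cell types, the summed endoderm genes stood higher in both fusion libraries than in both controls. The fibroblast sum did too, though none of its 6 genes passed the test. The neural and primitive streak sums overlapped between the groups. Of 18 tested endoderm genes 14 rose, where 2.83% of all genes were called higher. Among the 14 were Col4a1, Col4a2, Gata6, Lama1, Sox7 and Gata4. Limma on log2(TPM + 1) called 10 higher, where it called 261 of 15184 genes higher. The list of 21 summed to 1739 and 1647 CPM in fusion libraries 1 and 2, against 514 CPM in the parental line and 483 with the empty vector. Of its defining genes, Sox17 and Afp had 0 counts in the parental library, Ttr in both controls and Afp in fusion library 1. Sox17 was among the 14 that rose, at 6.97 and 6.75 CPM in fusion libraries 1 and 2 (log2 6.33, adjusted p = 0.0153). With the empty vector Sox17 stood at 0.159 CPM. Of the 14, Cubn (7.27 and 82.2 CPM in fusion libraries 1 and 2) and Hnf4a (58.7 and 8.98 CPM) differed widely between the fusion libraries. Of 11 tested neural genes only Sox1 rose and 0 fell, where 2.83% of all genes were called higher and 0.581% lower. At an unadjusted p of 0.05 in the edgeR test, 4 of the 11 were higher and 2 lower, beside 12.7% and 7.41% of all genes. The 22 summed to 206 and 203 CPM in the fusion libraries, against 187 and 232 CPM in the controls. Six3 had 0 counts in fusion library 1 and in both controls. In the list for the primitive streak and mesoderm, Foxa2 and Wnt3a rose among 11 tested, and Foxa2 is also 1 of the 14 endoderm genes that rose. At an unadjusted p of 0.05, 4 genes of this list were higher and 1, T, was lower (log2 -1.96). Over all genes 12.7% were higher and 7.41% lower at that p. The 15 summed to 62.5 and 31.1 CPM in the fusion libraries, against 38 and 23.5 CPM in the controls. Mesp1 had 0 counts in fusion library 1. Foxa2 was lost without the empty vector (adjusted p = 0.0613) or fusion library 1 (0.144). Wnt3a was lost without the parental library (0.0791), the empty vector (0.0585) or fusion library 1 (0.179). The 6 fibroblast markers summed to 46.9 and 55.4 CPM in the fusion libraries, against 40.3 and 26.8 CPM in the controls. Col1a1 alone stood at 27.6 and 26 CPM in the fusion libraries, against 17.9 and 10.8 CPM in the controls. Both fusion libraries lay above both controls in 4 of the 6, among them Dcn (log2 0.067), and below in 1, Postn. Over all genes tested 27.1% lay above and 24.2% below. At an unadjusted p of 0.05 in the edgeR test, 2 of the 6 were higher and 0 lower, beside 12.7% and 7.41% of all genes. Thy1 overlapped between the groups. The part of these cell types in the levels of Otx2, Pou3f1 and the other members was not tested.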

How the data were processed

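Libraries came from a stranded mRNA kit and total RNA, according to the labels. The authors deposited RSEM expected counts, TPM and FPKM per gene and the transcript lengths in bases, per the file headers; the submitters' processing notes name STAR 2.7.10a, RSEM 1.3.3, DESeq2 1.36.0 and build GRCm38/mm10. No source used here gives the annotation release or the strand setting. Of 55401 identifiers 99.5% matched GENCODE vM21. After rounding, edgeR 4.0.16 (R 4.3.3) was run on the expected counts: TMM, filterByExpr with a minimum count of 10, robust quasi-likelihood fit, two-sided, Benjamini-Hochberg over 16511 genes, threshold 0.05; the fit was tested on simulated data. The residual degrees of freedom were 2. The SE is the absolute log2 fold change divided by the square root of F. The deposited TPM served for level order and, as log2(TPM + 1), for limma 3.58.1; the deposited FPKM served for level order alone. DESeq2 1.42.0, other scalings and filters, each control alone and each library left out were alternatives. Counting intervals are exact Poisson at 95%. Starts and promoter sequences are RefSeq's (GRCm38.p6), of which only the 250 bases before the start were used. Genes besides the 7 members were named by rule: for each member the 2 nearest profiles, in each list the genes past the test (at most 6), paralogs that average 1 CPM or more over the libraries and neighbours past the test; a few such genes are left out. Members and lists were chosen with earlier results of these data known.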

Additional observations from a re-analysis of the deposited data

How the results depend on the processing

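The sign of each of the 7 genes' log2 fold changes was the same in all 16 alternatives in which it was computed: negative for Otx2 (-4.25 to -2.62), Pou3f1 (-1.52 to -1.13), Fgf5 (-4.19 to -1.8), Zic2 (-1 to -0.17), Sall2 (-1.04 to -0.43) and Car14 (-4.7 to -1.6), positive for Sox3 (0.23 to 0.6). All alternatives reuse the same 4 libraries, and the groups did not overlap in CPM for any of the 7. Leaving out a library or using 1 control could therefore not be expected to reverse a sign. Calls were less stable: Otx2 passed in 11 of the 16, Pou3f1 in 8, Fgf5 in 5, Car14 in 2 and Sox3, Zic2 and Sall2 in 0, with adjusted p from 4.35e-11 to 0.242 for Otx2, 6.22e-05 to 0.266 for Pou3f1, 1.56e-05 to 0.322 for Fgf5 and 0.0169 to 0.438 for Car14. The genes called (564; 96 lower, 468 higher), the members called lower (2) and the other formative and primed genes called lower (2) changed as follows; where not said otherwise, the cause was not tested. Without a filter, 1946 genes were called (631 lower, 1315 higher) and 7 of the other formative and primed genes were lower. With DESeq2's Wald test, 1363 were called (432 lower, 931 higher), with 4 members and 6 of the other genes lower. Limma on log2(TPM + 1) called 296 (35 lower, 261 higher) and limma on log2(TPM + 0.1) called 260 (28 lower, 232 higher). Each had 1 member and 0 of the other genes lower. With all genes above 0 in any library limma called 0 of 28933 genes, and so 0 members and 0 of the other genes. At an unadjusted p of 0.05 in that fit, 3599 genes passed in either direction, and 4 members were lower. With library totals 0 of the other genes were lower. Against the parental library alone 104 genes were called (20 lower, 84 higher) and against the empty vector alone 82 (18 lower, 64 higher), each with 0 members and 0 of the other genes lower; these fits set 1 library against 2. Leaving out each library in turn gave 163 to 552 genes called, 11 to 185 lower, 152 to 367 higher, 1 to 2 members lower and 0 to 5 of the other genes lower; the lowest counts of genes called were without fusion library 1, and 185 were lower without fusion library 2. DESeq2's size factors, a 1 CPM filter, the non-robust fit and unrounded counts gave counts within 1.5 times of those in the report. With DESeq2's size factors and with the 1 CPM filter, 3 members (Otx2, Pou3f1 and Fgf5) and 3 of the other genes were lower. The order of levels by FPKM was that by TPM for all 7 genes in both groups. No paired analysis was possible because the labels give replicate numbers to the fusion libraries alone. Counting intervals overlapped between the groups for Sox3 and for Zic2. The fusion libraries differed from each other beyond counting error for Otx2, Fgf5, Zic2 and Car14. The controls did so for Otx2, Fgf5, Zic2 and Sall2.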
